A study of Homo sapiens with 6 samples.

Results

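The stratified squamous and stress keratins are 10 genes whose proteins build the intermediate filaments of layered epithelium: KRT5, KRT14, KRT15, KRT6A, KRT6B, KRT6C, KRT16, KRT17, KRT13 and KRT10. They were chosen by gene symbol, and all 10 are present among the 62700 genes of the deposited count table. The cells were SAS, an established line from a human tongue squamous cell carcinoma. Poly(A) RNA was sequenced in 3 libraries of IGF2BP1 siRNA cells (genotype label IGF2BP1 knockdown) and 3 libraries of control siRNA cells (genotype label WT). The series asks whether IGF2BP1, which binds and stabilises many mRNAs, keeps Hippo signalling from shutting down the coactivator YAP1. The sources used here do not state the siRNA sequences, the time after transfection or whether replicates were separate cultures, and every p-value below reflects only library-to-library spread, part or all of which may be technical.

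Keratins are divided into acidic type I and basic type II chains, and a filament forms only when a type I chain pairs with a type II chain. Basal cells of stratified epithelium are known for the KRT5 and KRT14 pair, with KRT15 as a further basal type I chain, and cells leaving the basal layer switch to other pairs that include KRT10 in skin and KRT13 in internal mucosa. KRT6A, KRT6B, KRT6C, KRT16 and KRT17 are the stress keratins, which wounded, inflamed or hyperproliferating epithelium switches on and which squamous carcinomas often express. In these libraries the type II chains KRT5 and KRT6A fell strongly after knockdown, KRT14 fell slightly, and the type I chains KRT15, KRT16 and KRT10 rose, with KRT17 not called. Outside the 10 keratins, direction did not follow chain type. There, type II KRT81 and KRT86 rose, type II KRT7 and KRT8 fell, and type I KRT18 and KRT19 fell.

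Between 17918496 and 26675064 reads were counted per library. IGF2BP1 itself stood at 1.17 ± 0.399 CPM in knockdown libraries and 9.64 ± 1.55 CPM in control libraries (SD, n = 3 each), a log2 fold change of -3.07 (SE 0.30; edgeR adjusted p = 4.56e-06). CPM is the read count relative to the TMM-scaled library size. Of 9 squamous markers, edgeR called 3 lower and did not call 6. Among all tested genes, 12.9% were called, with 6.66% lower. The 3 markers were PKP1 and, from the 10 keratins themselves, KRT5 and KRT14. SFN, which encodes stratifin, was not called, at 1333 ± 87.3 CPM after knockdown and 1374 ± 99.8 CPM in controls, nor was TP63, the transcription factor of the squamous lineage, at 26.2 ± 9.66 CPM after knockdown and 26.4 ± 8.03 CPM in controls (SD, n = 3 each). DSG3, a desmosomal cadherin of stratified epithelium, was low, at 1.41 CPM after knockdown and 2.24 CPM in controls. The leukocyte genes PTPRC, CD3E and MS4A1 and the fibroblast genes COL3A1, DCN and LUM had 0 reads in all 6 libraries. The summed level of the 7 fibroblast markers, most of it COL1A1, ranged from 5.72 to 9.24 CPM after knockdown and from 6.37 to 8.5 CPM in controls. COL1A1 was not called, at 5.2 CPM after knockdown and 6.3 CPM in controls. Of the 3 fibroblast markers tested, PDGFRB was called higher, at 1.73 CPM after knockdown and 0.605 CPM in controls (log2 fold change 1.52, adjusted p = 0.0491, groups not overlapping), and its part in the keratin results was not tested. The summed level of the 6 leukocyte markers, nearly all of it CD14, ranged from 12.2 to 14.1 CPM after knockdown and from 17.4 to 18.5 CPM in controls. The part of CD14 in the keratin results was not tested. The endothelial markers summed to between 6.43 and 13.5 CPM after knockdown and between 6.29 and 7.41 CPM in controls, with KDR at 0 reads, and the melanocyte markers to between 4.68 and 5.61 CPM after knockdown and between 4.25 and 5.72 CPM in controls, with MLANA, TYR and DCT at 0 reads.

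Several of these genes are near-identical copies, which bears on how their reads were divided. Over 1692 coding bases, KRT6A differed from KRT6B at 42 and from KRT6C at 35, and KRT6A and KRT6C shared an unbroken identical run of 349 bases. The 60-base stretch of coding sequence in which the 3 genes differ most, coding bases 663 to 722, is shown to make clear how little separates their reads. Capitals mark the 9 positions at which the 3 genes are not all the same; the sequences were read 5′ to 3′ from GENCODE transcripts, and all lie on the minus strand of GRCh38 at chr12:52491555-52491614 for KRT6A, chr12:52450439-52450498 for KRT6B and chr12:52472099-52472158 for KRT6C.
KRT6A: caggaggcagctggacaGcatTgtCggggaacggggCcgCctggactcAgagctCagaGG
KRT6B: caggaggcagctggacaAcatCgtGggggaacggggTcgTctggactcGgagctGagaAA
KRT6C: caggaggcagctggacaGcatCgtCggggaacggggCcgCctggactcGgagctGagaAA

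KRT14, KRT16 and KRT17 are more distant, with 88.7% coding identity between KRT14 and KRT16 and 86.4% between KRT14 and KRT17, but KRT14 and KRT16 share an unbroken identical run of 158 bases. The 60-base stretch in which these 3 genes are most alike is shown for contrast; its single capital marks the only position that is not shared by all 3. It lies on the minus strand of GRCh38 at chr17:41586424-41586483 for KRT14, chr17:41612272-41612331 for KRT16 and chr17:41624192-41624251 for KRT17.
KRT14: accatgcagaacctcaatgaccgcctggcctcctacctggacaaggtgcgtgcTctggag
KRT16: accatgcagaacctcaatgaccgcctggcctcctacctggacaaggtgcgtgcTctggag
KRT17: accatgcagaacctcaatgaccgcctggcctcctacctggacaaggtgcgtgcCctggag

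How much of each transcript is not unique was measured as the share of its 100-base words found in a transcript of another gene in GENCODE release 29; the read length is not given in the sources used here. The share was 31.7% for KRT6C, 24.6% for KRT6B, 18.2% for KRT6A, 7.18% for KRT16, 5.95% for KRT14, 1.44% for KRT5 and 0.322% for KRT17, and 0 for KRT10, KRT13 and KRT15. With words of 50 bases the share was 53.6% for KRT6C, 47.1% for KRT6B and 39.1% for KRT6A. It was 23.8% for KRT14, 22% for KRT16 and 16% for KRT17. For KRT5 it was 3.99%, for KRT13 1.03%, for KRT15 0.725% and for KRT10 0. How far reads of these genes can be told apart thus depends on the read length. How reads that match several genes were counted is not given in the sources used here. The 6 KRT16 pseudogene rows held 96 reads after knockdown and 101 in controls, beside 1346 reads after knockdown and 774 in controls for KRT16 itself. The 8 KRT17 pseudogene rows held 23 reads after knockdown and 32 in controls, beside 152913 reads after knockdown and 166551 in controls for KRT17.

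Levels of different genes were compared in TPM, reads per kilobase of the deposited gene length scaled to the same total in each library. The order of genes at similar TPM depends on the length used. After knockdown the order was KRT17 (2423 ± 117 TPM) and KRT14 (2074 ± 43.8 TPM), then KRT5 (367 ± 20.7 TPM), with no overlap between libraries at either step, and far below them KRT10 (55.8 ± 2.08 TPM) and KRT6A (49.2 ± 3.4 TPM). By the deposited lengths of 2477 and 5969 bases, KRT16 (25.9 ± 2.51 TPM) and KRT15 (24.9 ± 1.28 TPM) did not differ from each other beyond their spread. Their transcripts used for the shared words have 1644 and 2394 bases. In CPM, KRT15 (46.8) lay above KRT16 (20.2) after knockdown. In controls KRT14 (2702 ± 133 TPM), KRT5 (2667 ± 149 TPM) and KRT17 (2369 ± 154 TPM) stood at the top. By the deposited lengths KRT14 and KRT5 overlapped, and KRT17 lay below both in each library. These lengths are 2255 bases for KRT14 and 2996 for KRT17, whereas the transcripts used for the shared words have 1662 and 1651 bases. In CPM, KRT17 (2306) lay above KRT14 (1980) in controls. KRT6A (194 ± 16.9 TPM) and KRT10 (38.9 ± 2.91 TPM) followed, and KRT16 (13.3 ± 2.34 TPM) and KRT15 (12.2 ± 0.421 TPM) again overlapped (SD, n = 3 each). KRT6B, KRT6C and KRT13 were below 3 TPM on average in both groups. By mean TPM among the 14649 tested genes, KRT5 ranked 477 after knockdown and 48 in controls.

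**Figure D1:**
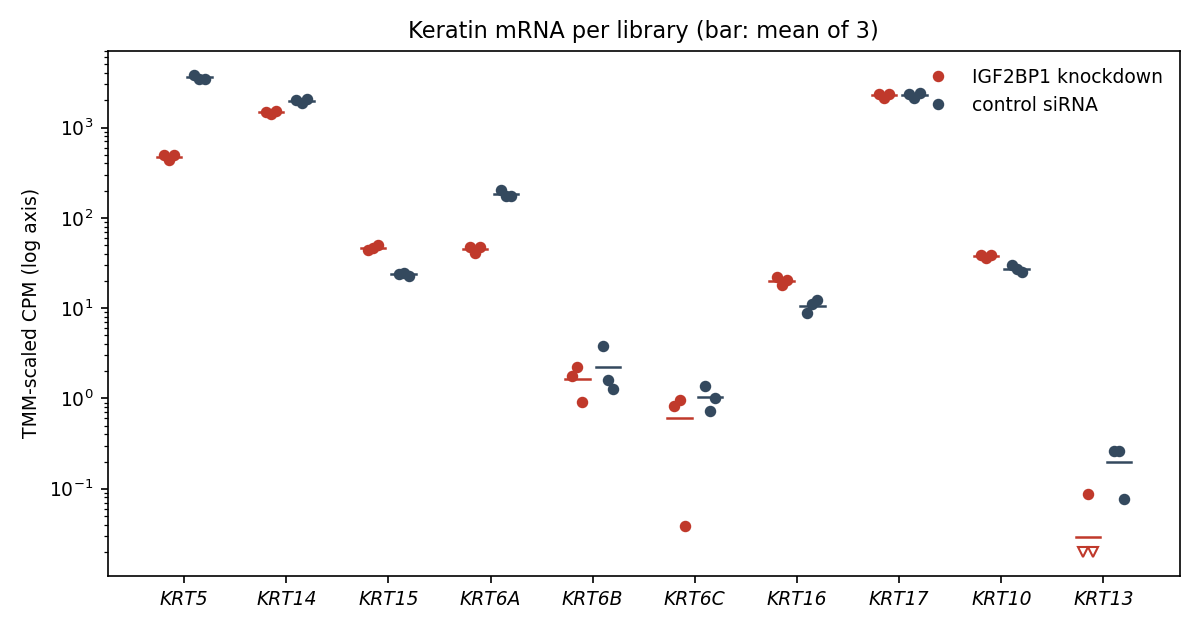
TMM-scaled CPM on a log axis for the 10 keratins in each library, with IGF2BP1 knockdown in red to the left and control siRNA in dark blue to the right; the horizontal bar is the mean of 3 libraries, and open triangles at the bottom mark 0 reads. KRT5 and KRT6A lie lower in all knockdown libraries than in all controls, KRT15, KRT16 and KRT10 lie higher, and KRT17 overlaps.

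Of the 10 genes, 9 passed the count filter and were tested with edgeR's quasi-likelihood test; calls required an adjusted p under 0.05. Of these 9, 3 rose, 3 fell and 3 were not called, against 12.9% called (6.27% higher and 6.66% lower) among all 14649 tested genes. Rises made up 48.5% of all calls, and 63.2% with no scaling factor, where 3 of the 9 keratins also rose and 3 fell. KRT13 was below the filter. The groups did not overlap for 6 of the 9, against 30.7% of all tested genes. The median log2 fold change, knockdown over control, was -0.43 over the 9 and 0.03 over all tested genes. In bulk RNA, fewer cells that express a gene and less RNA per cell cannot be told apart.

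Among the basal keratins, KRT5 changed most. KRT5 (ENSG00000186081, minus strand, GRCh38 chr12:52514575-52520687) is the type II chain of basal cells. It had 9018, 10029 and 12911 reads in knockdowns 1 to 3, against 87930, 80015 and 89945 reads in controls 1 to 3. Each knockdown library thus lay far below each control library. The scaled levels were 477 ± 32.9 CPM after knockdown and 3584 ± 233 CPM in controls (SD, n = 3 each), and the log2 fold change came to -2.91 (SE 0.11, 95% interval -3.14 to -2.68, adjusted p = 1.05e-10). Ordered by log2 fold change from the most lowered, KRT5 ranked 7 of all tested genes.

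KRT14 (ENSG00000186847, minus strand, chr17:41582279-41586921), the type I partner of KRT5, fell much less. In CPM, knockdowns 1 to 3 had 1491, 1417 and 1506, whereas controls 1 to 3 had 2000, 1877 and 2061. The groups did not overlap. The log2 fold change was -0.43 (SE 0.10, 95% interval -0.63 to -0.22, adjusted p = 0.00688). It was not called against a minimum fold of 1.2 (adjusted p = 0.138).

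KRT15 (ENSG00000171346, minus strand, chr17:41513743-41522529), a type I chain that marks basal and stem-like keratinocytes, moved the other way. In CPM, knockdowns 1 to 3 had 43.9, 45.9 and 50.5, whereas controls 1 to 3 had 24.01, 24.3 and 22.5. The lowest knockdown library lay well above the highest control library. KRT15 rose by 0.99 on the log2 scale (SE 0.13, edgeR adjusted p = 8.71e-05).

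Among the stress keratins, KRT6A fell and KRT16 rose. KRT6A (ENSG00000205420, minus strand, chr12:52487174-52493257) is the most abundant KRT6 chain here and the textbook type II partner of KRT16. It had 855, 935 and 1253 reads in knockdowns 1 to 3, against 4673, 4022 and 4551 reads in controls 1 to 3. The groups were far apart, at 45.3 ± 3.88 CPM after knockdown and 184 ± 17.8 CPM in controls (SD, n = 3 each). KRT6A fell by 2.02 on the log2 scale (SE 0.12, adjusted p = 1.33e-08). KRT5 and KRT6A were both among the 32 genes (0.218% of those tested) called lower by at least 2 on the log2 scale.

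KRT6B (ENSG00000185479, minus strand, chr12:52446651-52452126) and KRT6C (ENSG00000170465, minus strand, chr12:52468516-52473785) were scarce and not called. KRT6B had 32, 51 and 24 reads in knockdowns 1 to 3, against 87, 37 and 33 in controls 1 to 3, so the groups overlapped; its log2 fold change was -0.44 (95% interval -1.43 to 0.54, adjusted p = 0.611), and 0.16 without control 1. KRT6C had 15, 22 and 1 reads in knockdowns 1 to 3, against 31, 17 and 26 in controls 1 to 3, with a log2 fold change of -0.78 (95% interval -2.33 to 0.77, adjusted p = 0.56); these groups overlapped too. With KRT6A, KRT6B and KRT6C summed to 1 row, so that reads misplaced between them no longer matter, they fell by 1.98 on the log2 scale (SE 0.11, adjusted p = 1.33e-08) in a fit that called 12.9% of 14645 genes. This sum does not cover reads shared with KRT5, which had far more reads and also fell. KRT5 and KRT6A share an unbroken identical run of 104 coding bases. Whether KRT5 reads have a part in the KRT6A fall was not tested.

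KRT16 (ENSG00000186832, minus strand, chr17:41609778-41615899), the type I stress chain, had 401, 412 and 533 reads in knockdowns 1 to 3, against 199, 256 and 319 in controls 1 to 3. In CPM these were 22.1, 18.03 and 20.5 after knockdown and 8.72, 11.03 and 12.2 in controls, and the groups did not overlap. The log2 fold change was 0.92 (SE 0.18, 95% interval 0.53 to 1.3, adjusted p = 0.00282). With the reads of its pseudogenes added, it was 0.84 (edgeR adjusted p = 0.00343). That sum does not cover reads shared with KRT14, which had 98740 reads after knockdown and 142956 in controls. Whether KRT14 reads have a part in the KRT16 level was not tested.

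KRT17 (ENSG00000128422, minus strand, chr17:41619441-41624842), a type I stress chain also found in appendages of the skin, was the most abundant of the 10 keratins after knockdown and was not called. In CPM, knockdowns 1 to 3 had 2378, 2141 and 2332, whereas controls 1 to 3 had 2360, 2138 and 2420. The groups overlapped almost completely. The 95% interval of its log2 fold change ran from -0.22 to 0.20 around -0.01 (adjusted p = 0.952), and the sign of this value turned under some settings, with 0.07 without a scaling factor.

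Of the chains of suprabasal cells, KRT10 was higher and KRT13 was close to absent. KRT10 (ENSG00000186395, minus strand, chr17:40818117-40822595), the type I chain of differentiating epidermis, had 39.2, 36.1 and 38.7 CPM in the knockdowns in turn, whereas the controls in turn had 29.8, 26.9 and 25.3 CPM. The groups did not overlap, and KRT10 rose by 0.47 on the log2 scale (SE 0.13, adjusted p = 0.0255). This call was lost without control 2 or 3 or without knockdown 1 or 3, with log2 fold changes from 0.40 to 0.45 and adjusted p-values from 0.0555 to 0.11, and against a minimum fold of 1.2. The opposite-strand gene KRT10-AS1 covers 2.61% of the exon bases of KRT10; it had 30.03 ± 5.68 CPM after knockdown and 22.9 ± 2.31 CPM in controls (SD, n = 3 each; adjusted p = 0.134), and the strand setting of the counting is not given in the sources used here.

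KRT13 (ENSG00000171401, minus strand, chr17:41500981-41505705), the type I chain of internal mucosa such as that of the tongue, had 0, 2 and 0 reads in knockdowns 1 to 3, against 6, 6 and 2 in controls 1 to 3. At this depth 3 reads correspond to between 0.115 and 0.165 CPM. The summed counts of 2 after knockdown and 14 in controls gave a ratio of 0.154 after scaling for library size, with a 95% interval from 0.0169 to 0.668 (exact, conditional on the total) that covers counting error only. An opposite-strand gene shares 16.3% of its exon bases. KRT1, the type II partner of KRT10, had 0 reads after knockdown and 3 in controls, and KRT4, the partner of KRT13, had 1 read after knockdown and 2 in controls.

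**Figure D2:**
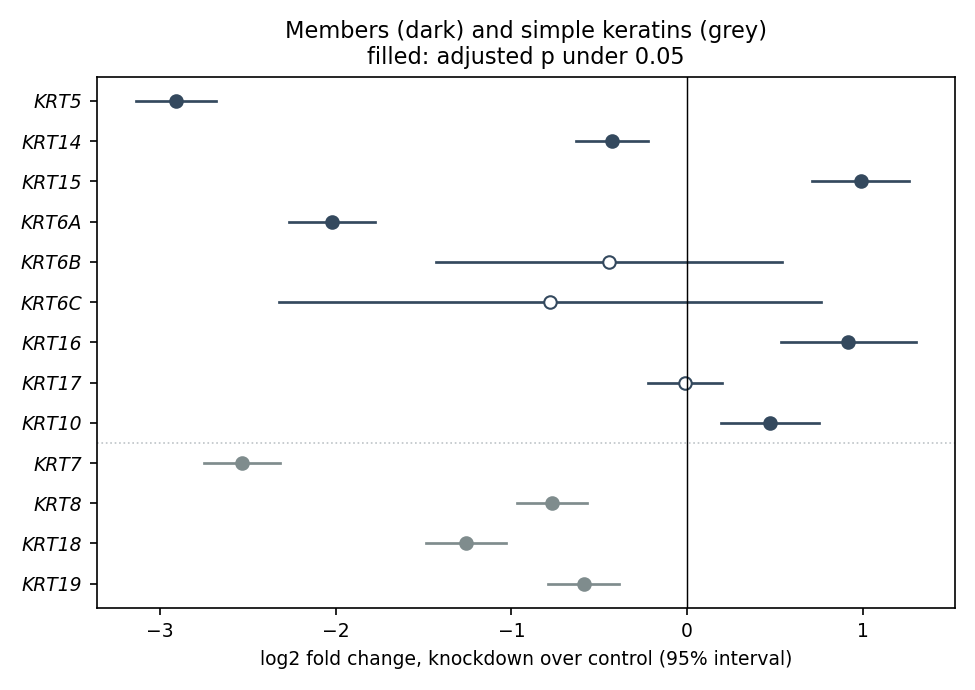
Log2 fold change, knockdown over control, with its 95% interval for the 9 tested keratins (dark) and, below the dotted line, the 4 tested simple epithelial keratins (grey); filled points have an adjusted p under 0.05. KRT5 (-2.91) and KRT6A (-2.02) stand to the left, KRT15 (0.99), KRT16 (0.92) and KRT10 (0.47) to the right of 0, and the interval of KRT17 is narrow around 0.

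Partner ratios put these differences on 1 scale within each library. KRT5 stood to KRT14, in reads per kilobase, as 0.181, 0.169 and 0.180 to 1 in knockdowns 1 to 3, against 1.05, 1.00 and 0.914 to 1 in controls 1 to 3. The mean difference was -2.48 on the log2 scale, which is 5.59-fold lower after knockdown. By the deposited gene lengths (4133 and 2255 bases), KRT5 and KRT14 stood near parity in controls. The parity depends on these lengths, whereas the difference between groups was the same without division by length. KRT6A stood to KRT16 as 1.81, 1.92 and 1.99 to 1 in knockdowns 1 to 3, against 19.9, 13.3 and 12.1 to 1 in controls 1 to 3, a difference of -2.95 on the log2 scale. Neither ratio overlapped between groups. Within the 10 keratins, the summed type II chains stood to the summed type I chains as 0.0920, 0.0884 and 0.0924 to 1 in knockdowns 1 to 3. Controls 1 to 3 had 0.592, 0.570 and 0.514 to 1, so the ratio was 6.14-fold lower after knockdown. Most of this type II sum was KRT5, at 2667 TPM in controls beside 194 TPM for KRT6A, so the ratio largely restates the fall of KRT5. It leaves out abundant keratins outside the 10, such as type II KRT7 and KRT8 and type I KRT18 and KRT19. A two-sided exact permutation test over libraries gave p = 0.1 for each of these ratios and for the summed level (0.1 adjusted over the 4 quantities), the smallest value that 3 against 3 libraries allow.

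**Figure D3:**
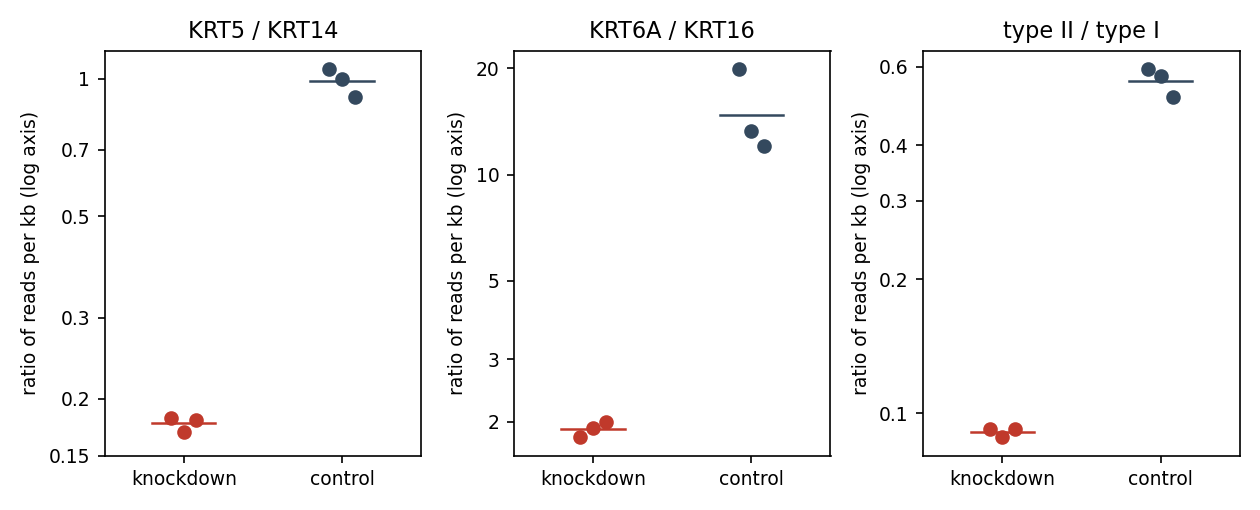
Ratios of reads per kilobase in each library on log axes for KRT5 over KRT14, KRT6A over KRT16 and the 4 type II over the 6 type I chains; points are libraries, knockdown in red to the left and control in dark blue to the right, and bars are geometric means of 3. The control libraries sit near 1 for KRT5 over KRT14, and the knockdown libraries between 0.169 and 0.181.

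The make-up of the pool changed with these falls. KRT5 made up 7.3% ± 0.173 of the summed reads per kilobase of the 10 keratins after knockdown and 33.4% ± 1.5 in controls. KRT17 made up 48.2% ± 0.527 after knockdown and 29.6% ± 0.892 in controls, although its level in CPM was near-equal. KRT14 made up 41.3% ± 0.671 after knockdown and 33.8% ± 0.902 in controls (SD, n = 3 each). The order of KRT14 and KRT17 within controls rests on the deposited gene lengths. Among the scarcer chains, KRT6A made up 0.98% ± 0.0415 after knockdown and 2.42% ± 0.165 in controls, and KRT10 made up 1.11% ± 0.00436 after knockdown and 0.487% ± 0.0376 in controls (SD, n = 3 each). All 10 together took 0.459%, 0.442% and 0.451% of counted reads in knockdowns 1 to 3, and 0.815%, 0.75% and 0.798% in controls 1 to 3. The summed level of the 10 keratins in CPM was 4520, 4141 and 4492 for the knockdown libraries, whereas the control libraries had 8486, 7700 and 8170, or 1.85-fold lower after knockdown.

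**Figure D4:**
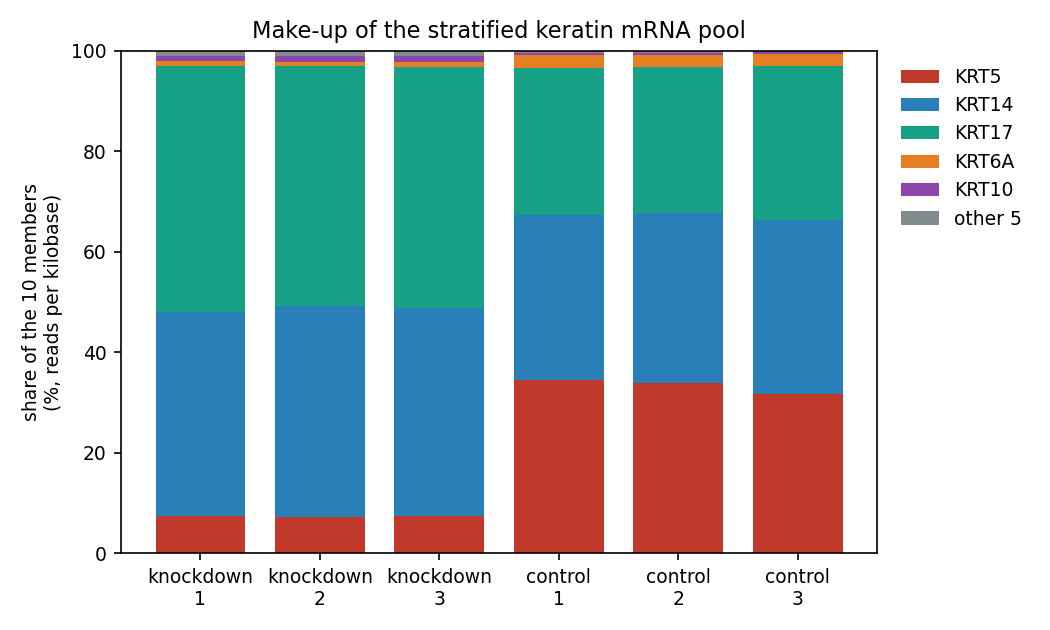
Share of each keratin in the summed reads per kilobase of the 10 genes, in percent, as stacked bars for the 3 knockdown libraries on the left and the 3 control libraries on the right. KRT17 is the largest segment after knockdown, and the KRT5 segment is between 7.1% and 7.41% in knockdown libraries and between 31.7% and 34.5% in control libraries.

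The simple epithelial keratins, which single-layered epithelium and many carcinomas express, were measured beside them. All 4 tested genes fell: KRT7 (-2.53), KRT18 (-1.26), KRT8 (-0.77) and KRT19 (-0.59), with adjusted p-values up to 5.87e-04, against 6.66% of all tested genes called lower, and KRT20 had 1 read in all. With these abundant chains counted in, the 10 stratified and stress keratins made up 38.4% ± 0.358 of the reads per kilobase of all 55 keratin genes after knockdown and 29.5% ± 0.476 in controls (SD, n = 3 each). Of 14 other keratins of stratified epithelium, 4 were tested and 0 called by edgeR, against 12.9% of all tested genes called. At an unadjusted p under 0.05 there were 0, and 0 were called by DESeq2 or limma-voom. KRT80, the one with a substantial level, had 300 ± 36.1 CPM after knockdown and 281 ± 14.6 CPM in controls (log2 fold change 0.09, 95% interval -0.13 to 0.32).

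Along the chromosomes, some neighbouring keratin genes moved in opposite directions and others moved together. All 10 genes lie in the keratin clusters of chromosomes 12 (type II) and 17 (type I). In the type II cluster, which also holds the type I gene KRT18, 13 of 27 keratin genes were tested, of which 5 fell and 2 rose, against 6.66% lower and 6.27% higher among all tested genes. KRT6A starts 27.4 kb from KRT5, and both fell, whereas the hair keratin genes KRT81 (1.60) and KRT86 (1.23) rose and start 229 and 271 kb from KRT5, next to KRT7, which fell and starts 288 kb away. KRT18 and KRT8, which both fell, start 428 and 429 kb from KRT5. KRT81 and KRT86 are close paralogs, so reads may be split between them. In the type I cluster 7 of 28 were tested, of which 3 rose and 2 fell. KRT16, which rose, starts 29 kb from KRT14, which fell, and on its other side KRT15, which rose, starts 64.4 kb away beside KRT19, which fell and starts 58.6 kb away. KRT10, which rose, starts 764 kb from KRT14, with no tested keratin gene beside it.

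**Figure D5:**
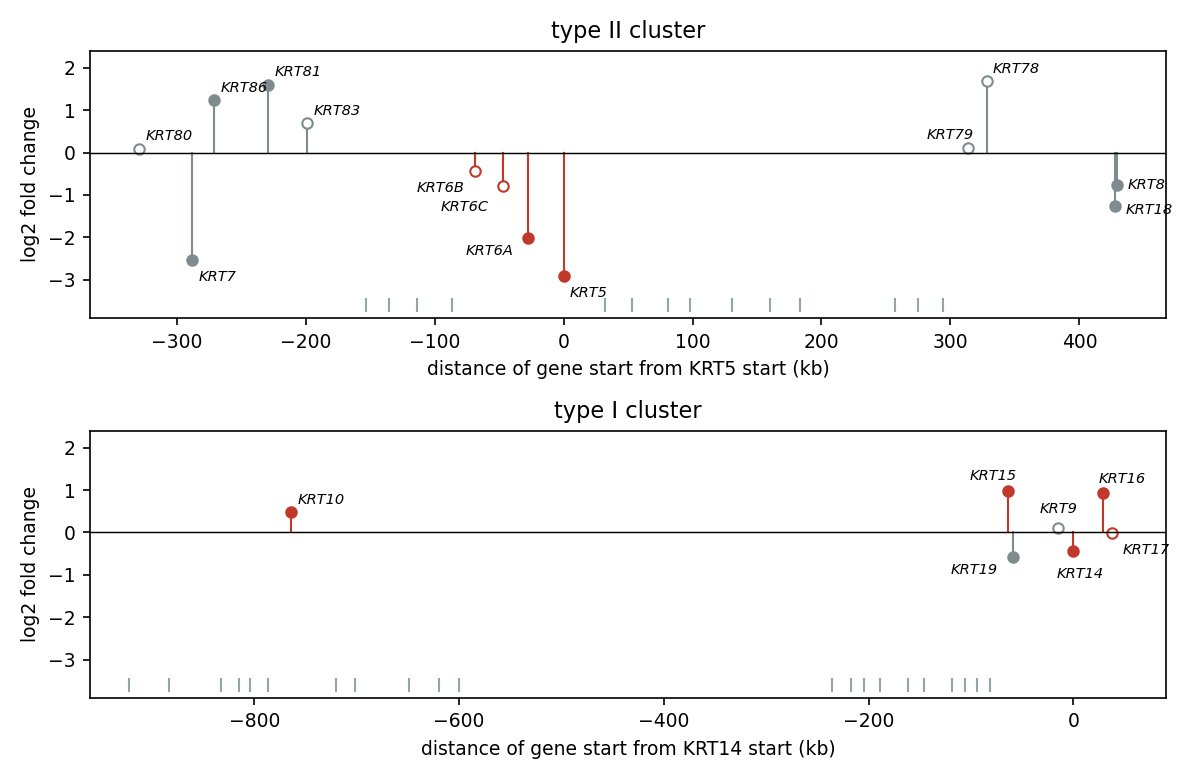
Log2 fold change, knockdown over control, of tested keratin genes by the distance of their start from that of KRT5 in the type II cluster (upper) and of KRT14 in the type I cluster (lower), in kilobases; red marks the 10 keratins, grey the others, filled points an adjusted p under 0.05, and ticks at the bottom genes that were not tested. KRT5 (-2.91) and KRT6A (-2.02) are adjacent falls, and KRT15 (0.99) and KRT16 (0.92) rise on either side of KRT14 (-0.43).

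Transcripts of proteins that anchor keratin filaments at desmosomes and hemidesmosomes had smaller log2 fold changes than KRT5. Of 17 such genes, all tested, 3 fell and 0 rose by edgeR (17.6% called, against 12.9% of all tested genes; at an unadjusted p under 0.05, 6 were lower and 0 higher, and DESeq2 and limma-voom called 0 higher), with a median log2 fold change of -0.31. COL17A1, the transmembrane collagen of hemidesmosomes, fell by 0.68 on the log2 scale (adjusted p = 7.18e-04), PPL, which encodes the cytolinker periplakin, by 0.48 (adjusted p = 0.00704) and PKP1, the desmosomal plakophilin of stratified epithelium, by 0.37 (adjusted p = 0.0424). The number of falls was 6 without knockdown 1 and 2 without knockdown 3 or control 1 or 2. The desmosomal linker DSP (-0.12) and plectin gene PLEC (-0.31) were not called.

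Regulators known to act on keratin genes, most of them transcription factors, were read from a list of 29. Of 27 tested, 7 fell and 1 rose (29.6% called, against 12.9% of all tested genes, with 6.66% lower and 6.27% higher; at an unadjusted p under 0.05, 10 were lower and 4 higher), with a median log2 fold change of -0.20. TP63, which drives KRT5 and KRT14 in keratinocytes, was not called (-0.01, 95% interval -0.59 to 0.57, adjusted p = 0.986). The epithelial ETS factor ELF3 fell most, at 59.7 ± 4.64 CPM after knockdown and 194 ± 2.4 CPM in controls (SD, n = 3 each; log2 fold change -1.70). The AP-1 subunit genes FOS (-1.44) and JUNB (-1.14) also fell, while the AP-1 subunit genes JUN (-0.06) and FOSL1 (0.06) were not called. GRHL3 (-0.65), NFKB1 (-0.59) and PITX1 (-0.53) were among the other falls. KLF4, a factor of barrier differentiation, was the rise (0.84, adjusted p = 0.0473), with overlapping groups; 0 rises were called without knockdown 1, knockdown 2 or control 2, and 2 without knockdown 3. Whether any of these regulators has a part in the keratin changes was not tested.

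For each called keratin the 3 genes with the nearest profile were found among 8035 genes with at least 5 CPM on average, by the root mean square difference of log2 CPM, centred on the control mean, over the 6 libraries. Nearest to KRT5 were HDLBP, which encodes the RNA-binding protein vigilin (0.216), KRT7-AS (0.226) and KRT7 (0.269). KRT7-AS lies on the opposite strand within KRT7, so the reads of these 2 genes may not be independent. Nearest to KRT6A were TNFAIP2 (0.0981), UNC5B (0.114) and TERF2IP (0.164), nearest to KRT15 were EFEMP2 (0.0516), P2RX4 (0.075) and TCTA (0.091), and nearest to KRT16 were PANX2 (0.103), HOMER3 (0.108) and STING1 (0.11). For KRT14 and KRT10, whose changes were small, 173 and 117 genes lay within 0.1, so that their nearest genes say little.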

How the data were processed

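In the table deposited by the authors, each library has a column of unnormalised counts by gene, matched by library name, beside a gene length; 0 per-sample columns were left unused. Per the submitters' processing notes, cutadapt 2.8, HISAT2 2.1.0, SAMtools 1.10 and featureCounts 2.0.0 were used with build hg38; their order and settings are not stated there. Per the labels' protocols, libraries were strand-marked with dUTP. The members and gene lists were chosen with earlier results of these data known. Genes passing filterByExpr (minimum count 10, total 15) were tested in edgeR 4.0.16 (R 4.3.3) with TMM scaling, robust dispersions, glmQLFit and glmQLFTest, without covariate, with Benjamini-Hochberg adjustment over all tested genes. CPM is TMM scaled, and fold changes are knockdown over control. SE is the coefficient over the square root of its F statistic. The fit was tested on simulated data. Alternatives used RLE or no scaling, other filters, a replicate block, DESeq2 1.42.0, limma-voom 3.58.1, glmTreat, each library left out, and merged near-identical genes. Genes named were all 10 members, tested keratins of both clusters, called list members, the 3 nearest profiles and IGF2BP1. SFN, DSG3, TP63, DSP, PLEC, DSC3, JUN, FOSL1, KRT80, KRT1, KRT4 and COL1A1 were added after their values were seen. Some list members are not reported here by name. Coordinates and sequences come from GENCODE release 29 (GRCh38). Chi-square per degree of freedom between replicates was 14.6 to 36.2, so none was counted as a copy.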

Additional observations from a re-analysis of the deposited data

How the results depend on the processing

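The falls of KRT5 (-2.96 to -2.83) and KRT6A (-2.08 to -1.94) and the rises of KRT15 (0.92 to 1.07) and KRT16 (0.76 to 1.02) kept their calls in all 14 alternatives. Between 4 and 6 of the 10 keratins were called, with 5 to 6 when 1 library was left out. With a minimum fold of 1.2 KRT14 was not called (-0.43). The count table held 0 rows with a KRT14 pseudogene symbol, so adding pseudogenes left its reads unchanged. KRT17, alone and with pseudogenes, was not called under any setting; its sign turned with no scaling factor (0.0692 alone, 0.0691 with pseudogenes) and with the filter of 5 CPM in 3 libraries (0.0218 for both), and leaving out libraries gave -0.0824 to 0.0064 alone and -0.0824 to 0.0063 with pseudogenes. KRT6B ranged from -0.78 to 0.16 without 1 library. The cause was not tested. Falls among the anchoring genes numbered 7 without a count filter, 5 with DESeq2 and 1 with the minimum fold, and 2 to 6 without 1 library. Rises among the regulators numbered 3 with no scaling factor or the stricter filter, 2 with no filter or DESeq2, 0 with limma-voom or the minimum fold, and 0 to 2 without 1 library.

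Same-numbered libraries did not all deviate together (correlations 0.179, 0.0863 and -0.073), and knockdown 2 correlated best with control 3, so the numbers were not taken as pairing. With the replicate block, 2431 genes were called in place of 1893, and 3 keratins rose and 3 fell, as without it; paired sign changes of the ratios gave p = 0.25 (exact), the smallest that 3 pairs allow. Calls over all genes numbered 1231 without control 2 and 972 with the minimum fold. With TPM in place of CPM, chosen after seeing the data, the summed level of the 10 keratins fell by 0.67 on the log2 scale, against a fall of 0.89. Depth limits KRT6B, KRT6C and KRT13, which rest on few reads.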
